A study of Rattus norvegicus with 9 samples.

Results

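Mb encodes myoglobin and Cygb encodes cytoglobin, members of the globin family of heme proteins. Both rows were taken by gene symbol from a table of expression values for 14636 genes, so they are 2 of 14636 (gene IDs 59108 and 170520). They were selected with their values in these libraries already known, and so their levels and differences are given as a description, with no test. The libraries are poly-A RNA-seq profiles of cardiac myocytes taken from hearts of Sprague Dawley rats 2 days old, enriched on a Percoll gradient and kept in medium with 15% serum. The cells of 3 libraries received siRNA against Llgl1 together with Llgl2 (Llgl1/2 siRNA), those of 3 received siRNA against Yap (Yap siRNA) and those of 3 received a universal negative control siRNA (control siRNA). Transfection followed 16 h of culture, with 2 siRNAs per target at 25 nM each, and RNA was collected 48 h later. Llgl1 and Llgl2 are cell polarity genes, and Yap1 encodes the coactivator restrained by Hippo signalling. The labels do not say whether libraries of a group are separate cultures, and the p-values therefore reflect spread among libraries that could be technical only.

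Myoglobin is a monomeric globin of heart and skeletal muscle that binds oxygen reversibly at its heme iron, buffers and carries oxygen towards mitochondria, and scavenges nitric oxide. It accumulates in oxidative muscle and serves as a mark of the mature working myocyte. Cytoglobin is found at low levels in many organs, mainly in fibroblast-like cells, pericytes and some neurons. It binds oxygen too, and is best known for consuming nitric oxide and for protecting cells from oxidants. Its iron is returned to the oxygen-binding state by cytochrome b5 and cytochrome b5 reductase.

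Of the 2 members, Mb matched the RefSeq promoter table, and the start of its gene is shown. The sequence runs from 250 bases before to 50 bases after the annotated start (GRCr8, chr7:110647693-110647992, minus strand), a newer assembly than the rn6 build of the deposited values. Capitals mark a CCACCCC match, a TATAAA match and 4 CANNTG matches, the core of the E-box.
Mb promoter: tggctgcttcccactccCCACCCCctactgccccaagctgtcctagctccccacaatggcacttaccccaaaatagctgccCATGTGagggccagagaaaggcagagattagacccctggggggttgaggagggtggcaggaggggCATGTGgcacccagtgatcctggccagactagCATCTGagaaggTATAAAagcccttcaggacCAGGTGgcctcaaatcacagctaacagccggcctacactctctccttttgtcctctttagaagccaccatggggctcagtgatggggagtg
Both strands were searched, and no match overlapped another. Of 33465 promoters of the same length, 13.4% held CCACCCC, 14.2% held TATAAA and 72.1% held CANNTG. The letters GGAATG, the core bound by TEAD factors, were not found in this window and were present in 14.2% of promoters. ACGTG, the core of the hypoxia response element, was likewise not found (19.3% of promoters), nor was the MEF2 consensus (0.565% of promoters). These matches describe letters in a window and show no binding.

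The values are FPKM, read fragments scaled to transcript length and to library size, which the authors deposited for each library. Their sum per library was 572884 to 620119, and 12703 to 12831 genes were above 0. No read totals are part of the table. A gene was tested when it reached 1 FPKM in at least 3 libraries, which kept 10789 genes. The targets checked the labels in limma. In the Llgl1/2 siRNA libraries Llgl1 was at -1.20 ± 0.11 (SE) relative to control on the log2(FPKM + 1) scale (adjusted p = 3.9e-06), with Llgl2 at -0.84 ± 0.13 (adjusted p = 0.00025). The Yap siRNA libraries had Yap1 at -3.24 ± 0.11 (adjusted p = 1.7e-10). After Yap siRNA limma also placed Llgl1 at -0.43 ± 0.11 (adjusted p = 0.0064) and Llgl2 at -0.48 ± 0.13 (adjusted p = 0.0086).

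Mb was a highly expressed gene in every library, and its level was several times higher in the Yap siRNA libraries than in the others. It stood at 157.35, 157.93 and 184.19 FPKM in the Llgl1/2 siRNA libraries, at 543.31, 514.58 and 535.45 FPKM in the Yap siRNA libraries, and at 114.87, 121.50 and 140.59 FPKM in the control siRNA libraries. The 3 groups did not overlap. Among all 14636 genes Mb ranked between places 488 and 587 after Llgl1/2 siRNA, between 192 and 196 after Yap siRNA and between 659 and 840 in the controls. The group means were 166 ± 15.3 FPKM after Llgl1/2 siRNA, 531 ± 14.8 FPKM after Yap siRNA and 126 ± 13.4 FPKM in the controls (SD, n = 3 each).

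Mb after Llgl1/2 siRNA stood only a little above control. The ratio of means was 1.32 (difference 0.40 ± 0.09 SE, log2(FPKM + 1)), and the lowest Llgl1/2 siRNA library was 1.12 times the highest control library. After Yap siRNA the ratio to the control mean was 4.23 (difference 2.08 ± 0.09 SE), and the lowest Yap siRNA library was 3.66 times the highest control library. By the size of that log2 difference Mb stood in place 15 of 10789 tested genes in the comparison of Yap siRNA with control, and in place 1451 in the comparison of Llgl1/2 siRNA with control. Set directly against each other, Mb after Llgl1/2 siRNA was 0.313 times its level after Yap siRNA (difference -1.67 ± 0.09 SE). The RNA came from whole cultures, so more cells of a type and more RNA per cell cannot be told apart for either globin.

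**Figure D1:**
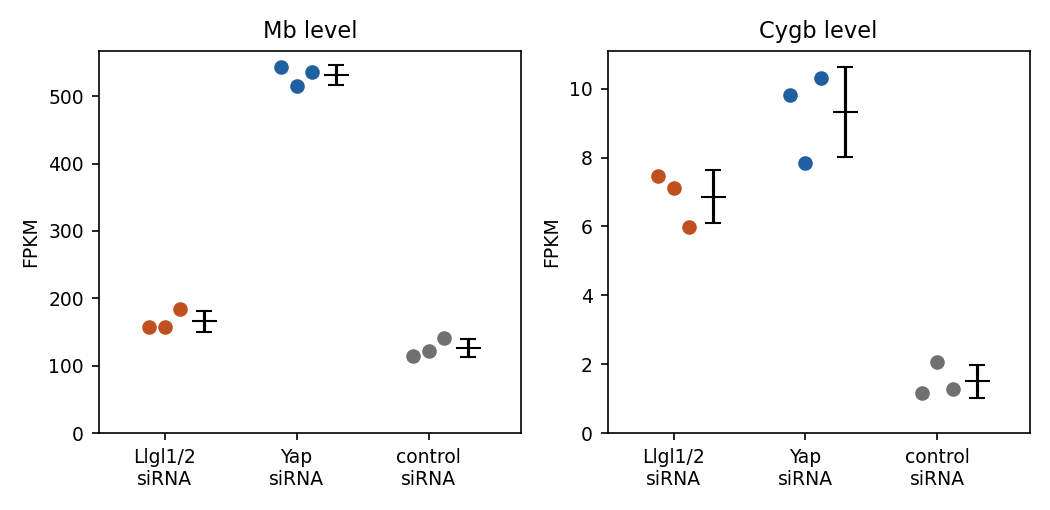
Levels of Mb (left) and Cygb (right) in FPKM in each of the 9 libraries, by siRNA group. Points are libraries and the black marks give the mean ± SD of 3. Mb is at 514.58 FPKM or above in the Yap siRNA libraries and at 184.19 FPKM or below elsewhere, while Cygb is at 5.99 FPKM or above after either siRNA and at 2.06 FPKM or below in the controls.

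Cygb was a scarce transcript that was higher after either siRNA. It stood at 7.46, 7.13 and 5.99 FPKM in the Llgl1/2 siRNA libraries, at 9.81, 7.85 and 10.31 FPKM in the Yap siRNA libraries, and at 1.18, 2.06 and 1.28 FPKM in the control siRNA libraries. All 6 libraries of the targeting siRNAs lay above all 3 control libraries. The Llgl1/2 and Yap siRNA groups did not overlap either, but the gap between them was narrow, since the highest Llgl1/2 siRNA library was 0.95 times the lowest Yap siRNA library. The means were 6.86 ± 0.771 FPKM after Llgl1/2 siRNA, 9.32 ± 1.30 FPKM after Yap siRNA and 1.51 ± 0.482 FPKM in the controls (SD, n = 3 each). In the controls Cygb ranked between places 9754 and 10331 of all genes, after Llgl1/2 siRNA between 7409 and 8009, and after Yap siRNA between 6388 and 6955.

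The ratio of Cygb means was 4.55 for Llgl1/2 siRNA over control and 6.19 for Yap siRNA over control. On the log2(FPKM + 1) scale the differences were 1.66 ± 0.15 and 2.05 ± 0.15 (SE), which understates them because the control level is close to the added 1 FPKM. With 0.1 FPKM added instead, they were 2.15 ± 0.19 and 2.58 ± 0.19. By the differences with 1 FPKM added, Cygb stood in place 10 of 10789 tested genes after Llgl1/2 siRNA and in place 16 after Yap siRNA. Cygb after Llgl1/2 siRNA was 0.736 times its level after Yap siRNA (difference -0.39 ± 0.15 SE). Cygb passed the filter on low values in every library, controls included, so its place among the tested genes did not rest on the groups where it was high.

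Both members lay above every control library after either siRNA, against a background in which 30.1% of tested genes did so after Llgl1/2 siRNA and 23.3% after Yap siRNA. Both lay below every Yap siRNA library after Llgl1/2 siRNA, as did 21.4% of tested genes. These contrasts are those known when the pair was chosen, so nothing is read from the counts. Both comparisons with the control use the same 3 control libraries. The globins differed in proportion. Mb exceeded Cygb by 24.7 ± 5.3 times after Llgl1/2 siRNA, by 57.6 ± 7.08 times after Yap siRNA and by 88.7 ± 26.5 times in the controls (ratio of FPKM per library, mean ± SD, n = 3). Within groups Mb varied about as much as other genes, with an SD of 0.116 on the log2 scale against a median of 0.126 over all tested genes, and Cygb varied more, with an SD of 0.206. The control libraries contributed most to that, with a coefficient of variation of 32.0% for Cygb, against 11.2% after Llgl1/2 siRNA and 13.9% after Yap siRNA.

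**Figure D2:**
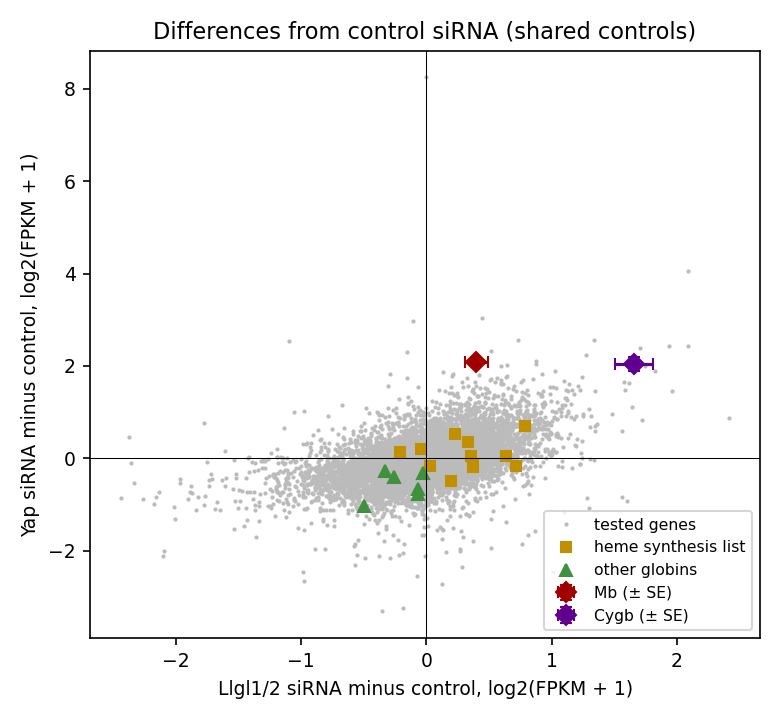
Difference from control siRNA in log2(FPKM + 1) for Llgl1/2 siRNA (horizontal) and Yap siRNA (vertical), for 10789 tested genes (grey), 12 heme synthesis genes (squares), 6 other globin genes (triangles) and the 2 members (diamonds, ± SE). Both axes share the same control libraries. Mb lies at 0.40 and 2.08 and Cygb at 1.66 and 2.05, while the 6 other globin genes shown lie below 0 on both axes.

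The genes whose profiles lay nearest to each member were found from all 9 libraries, as the root mean square difference of log2(FPKM + 1) after each gene was centred on its own mean, over 8350 other genes with a mean of at least 5 FPKM. They were selected by their values, so they are listed without a test. Nearest to Mb was Hrc, a calcium-binding protein gene of the sarcoplasmic reticulum, at a difference of 0.147 against a median of 0.953 over all genes. Hrc stood at 38.07, 46.29 and 45.13 FPKM after Llgl1/2 siRNA, at 127.96, 141.98 and 130.64 FPKM after Yap siRNA and at 34.83, 33.07 and 43.55 FPKM in the controls. Next came Atp1b2, a sodium pump subunit gene (0.174), Atp5i, which encodes a subunit of the mitochondrial ATP synthase (0.182), Atp6ap1l (0.185), Trdn, the triadin gene of the calcium release complex (0.209), and Acsf2, an acyl-CoA synthetase gene (0.228). Each of the 6 was highest in the Yap siRNA libraries.

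Cygb had a different set of neighbours in profile. The nearest was Efnb3, an ephrin ligand gene, at a root mean square difference of 0.223, with 38.88, 38.80 and 37.59 FPKM after Llgl1/2 siRNA, 46.52, 43.94 and 48.54 FPKM after Yap siRNA and 10.24, 9.45 and 12.81 FPKM in the controls. It was followed by Lrrc4b, a synaptic adhesion gene (0.276), Cd248, the endosialin gene of pericytes and fibroblasts (0.300), Myh7b, a myosin heavy chain gene (0.300), Gnb3, a G protein beta subunit gene (0.310), and Sphkap, a protein kinase A anchoring gene (0.312). Each of the 6 was higher in all 6 libraries of the targeting siRNAs than in any control library. Mb was only in place 305 by likeness to Cygb, at a difference of 0.634, and Cygb was in place 353 by likeness to Mb.

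**Figure D3:**
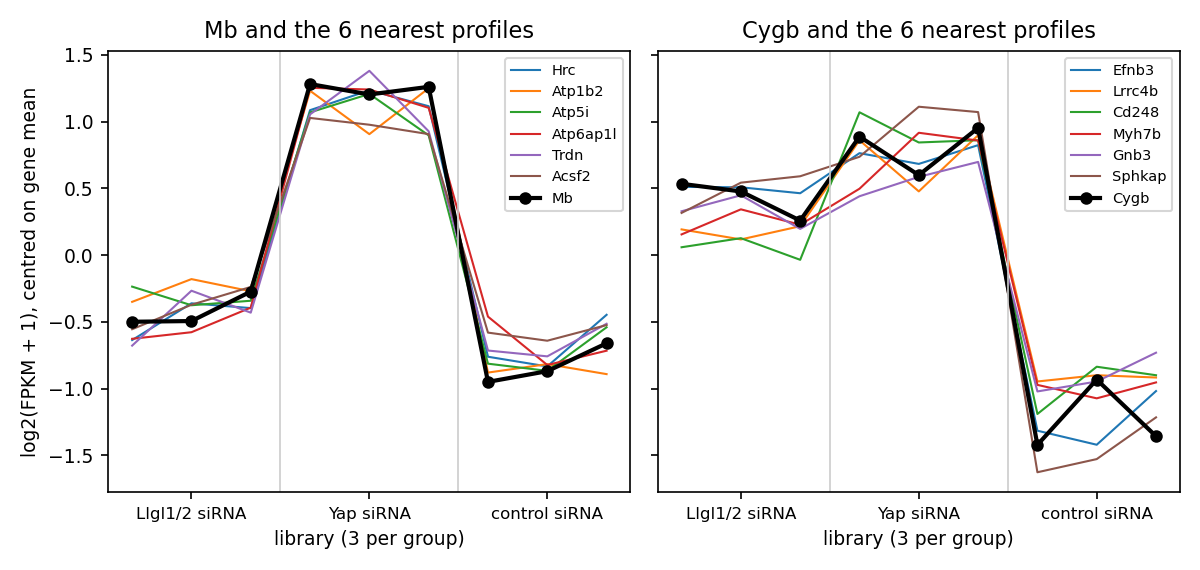
Profiles over the 9 libraries of Mb (left, black) and Cygb (right, black) with the 6 genes nearest to each, as log2(FPKM + 1) centred on each gene's mean. The genes of the Mb set are highest in the Yap siRNA libraries, and the Cygb set is high after either siRNA and low in the controls.

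The other globins were not higher after either siRNA. Of 16 listed symbols, 7 genes were in the table and 6 were tested: hemoglobin genes of the alpha group (Hba1, Hba2, Hba-a1) and of the beta group (Hbb, Hbb-b1, LOC689064). After Llgl1/2 siRNA limma called none of them, with 40.2% of all tested genes called in either direction. The median difference was -0.17, against 0.03 over all tested genes. After Yap siRNA only Hbb was called, at -0.66 ± 0.22 SE on the log2(FPKM + 1) scale (limma, adjusted p = 0.034), with 48% of all tested genes called. Hbb stood at 53.89, 38.68 and 28.08 FPKM in the Yap siRNA libraries and at 53.63, 68.18 and 65.73 FPKM in the controls, so the groups overlapped, and the count ran from 0 to 4 when single libraries were left out. It was 0 without Yap siRNA library 2 or 3 or control library 2 or 3, 2 without Llgl1/2 siRNA library 1, 3 without Llgl1/2 siRNA library 3 and 4 without Yap siRNA library 1. Hemoglobin genes are near-identical copies, and reads can be split among them. Ngb, the neuroglobin gene, was listed at 0 in 7 of 9 libraries and at 0.06 FPKM in the rest. Of the summed FPKM of Mb, Cygb and these 7 listed genes, Mb made up 36.3% to 49.9% after Llgl1/2 siRNA, 69.5% to 78.3% after Yap siRNA and 30.8% to 35.7% in the controls. Cygb made up 1.62% to 1.75% after Llgl1/2 siRNA, 1.18% to 1.51% after Yap siRNA and 0.325% to 0.523% in the controls.

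A globin works only with heme, so the genes that make, move and break down heme were examined next. After Llgl1/2 siRNA 8 of 12 tested genes of heme synthesis rose and 1 fell, with a median difference of 0.34 against 0.03 over all tested genes, of which 22.1% rose and 18.1% fell. After Yap siRNA 3 rose and 2 fell, with a median of 0.06 against -0.06 over all tested genes, of which 20.5% rose and 27.5% fell. The few falls were unsteady: the fall after Llgl1/2 siRNA was lost without Llgl1/2 siRNA library 1 or 3 or control library 1 or 3, and the 2 falls after Yap siRNA became 1 without Llgl1/2 siRNA library 2 or 3, Yap siRNA library 1 or 2, or any control library. Fech, the gene for ferrochelatase, which inserts iron into protoporphyrin, rose after either siRNA. It stood at 24.53, 24.98 and 28.40 FPKM after Llgl1/2 siRNA, at 22.80, 24.39 and 25.05 FPKM after Yap siRNA and at 14.84, 14.03 and 14.75 FPKM in the controls. All 6 libraries of the targeting siRNAs lay above the controls, and the differences were 0.79 ± 0.08 SE (limma, adjusted p = 8.6e-06) and 0.69 ± 0.08 SE (adjusted p = 1.5e-05).

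Other steps of heme synthesis were less alike between the siRNAs. Cpox, which encodes coproporphyrinogen oxidase, rose by 0.72 ± 0.10 after Llgl1/2 siRNA (limma, adjusted p = 7e-05) and was at -0.16 ± 0.10 after Yap siRNA (adjusted p = 0.18). Abcb10, a transporter gene of the mitochondrial inner membrane needed for heme synthesis, rose by 0.64 ± 0.11 after Llgl1/2 siRNA (adjusted p = 0.00057) and was at 0.05 ± 0.11 after Yap siRNA (adjusted p = 0.72). In the direct comparison, where limma called 47% of tested genes, Cpox was higher after Llgl1/2 siRNA than after Yap siRNA by 0.88 (adjusted p = 9.7e-06) and Abcb10 by 0.59 (adjusted p = 0.00083). Alas1, named after its values were seen, is the gene for the rate-limiting first enzyme outside the red cell lineage. It rose by 0.37 ± 0.07 after Llgl1/2 siRNA (adjusted p = 0.00097) and fell by 0.19 ± 0.07 after Yap siRNA (adjusted p = 0.041), and the siRNAs differed by 0.55 (adjusted p = 3e-05). The Alas1 fall was 1 of the 2 after Yap siRNA whose count was unsteady when single libraries were left out. Urod, the uroporphyrinogen decarboxylase gene, rose by 0.23 ± 0.06 after Llgl1/2 siRNA (adjusted p = 0.01) and by 0.52 ± 0.06 after Yap siRNA (adjusted p = 2.2e-05).

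**Figure D4:**
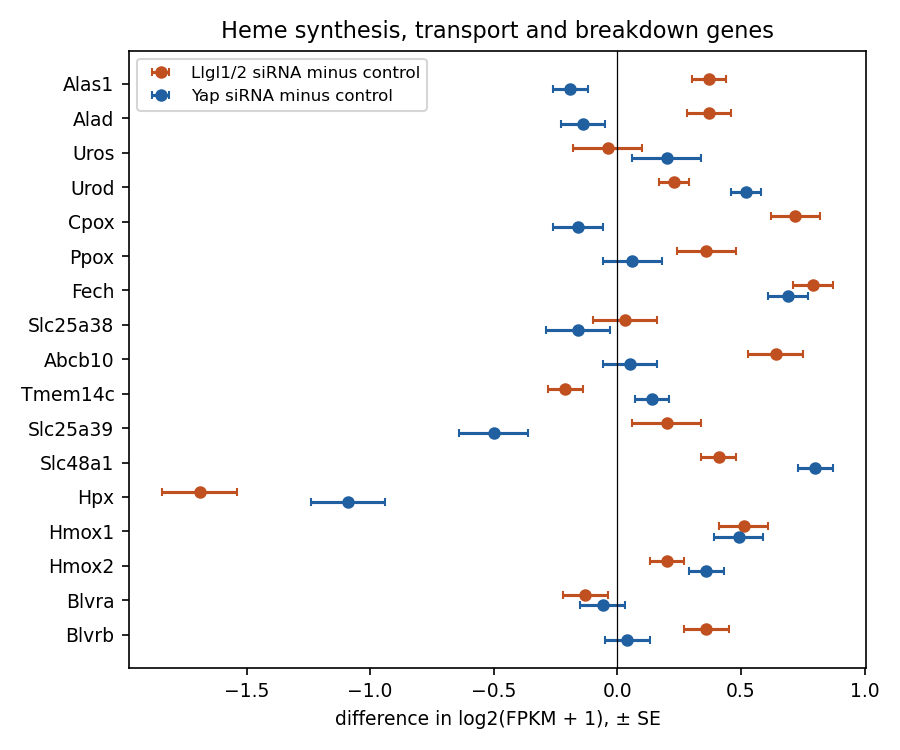
Difference from control siRNA in log2(FPKM + 1), with its SE, for 11 of the 12 tested heme synthesis genes and 6 genes of heme transport and breakdown, after Llgl1/2 siRNA (orange) and Yap siRNA (blue). Fech lies to the right of 0 for both, Cpox and Abcb10 at 0.72 and 0.64 for Llgl1/2 siRNA and at -0.16 and 0.05 for Yap siRNA, and Hpx to the left for both.

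Of 10 tested genes of heme transport and breakdown, 5 rose and 2 fell after Llgl1/2 siRNA, and 3 rose and 5 fell after Yap siRNA, or 3 and 3 without control library 2. Over all tested genes 22.1% rose and 18.1% fell after Llgl1/2 siRNA, and 20.5% rose and 27.5% fell after Yap siRNA. The medians of the list were 0.18 and -0.16. Slc48a1, which encodes a heme transporter of endosomes and lysosomes, stood at 49.63, 47.94 and 51.75 FPKM after Llgl1/2 siRNA, at 66.17, 64.09 and 65.55 FPKM after Yap siRNA and at 36.70, 35.69 and 38.88 FPKM in the controls, with no overlap among the 3 groups. It rose by 0.41 ± 0.07 (limma, adjusted p = 0.00033) and 0.80 ± 0.07 (adjusted p = 7.5e-07). Hmox1, the inducible heme oxygenase gene and likewise named after its values were seen, rose by 0.51 ± 0.10 after Llgl1/2 siRNA (adjusted p = 0.0016) and by 0.49 ± 0.10 after Yap siRNA (adjusted p = 0.0016). Hpx, the gene for the heme scavenger hemopexin, fell by 1.69 ± 0.15 (adjusted p = 2.7e-06) and by 1.09 ± 0.15 (adjusted p = 5.4e-05). Pgrmc1, which encodes a heme-binding membrane protein, fell by 0.96 ± 0.07 after Yap siRNA (adjusted p = 3e-07) and was at 0.17 ± 0.07 after Llgl1/2 siRNA (adjusted p = 0.079), and the siRNAs differed by 1.13 (adjusted p = 7.9e-08). Its relative Pgrmc2 rose by 0.36 ± 0.07 after Llgl1/2 siRNA (adjusted p = 0.0012) and fell by 0.27 ± 0.07 after Yap siRNA (adjusted p = 0.0069).

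Iron-handling genes went both ways. Of 18 tested, 7 rose and 4 fell after Llgl1/2 siRNA (median 0.15), and 5 rose and 9 fell after Yap siRNA (median -0.19). The shares of all tested genes that rose and fell were 22.1% and 18.1% after Llgl1/2 siRNA and 20.5% and 27.5% after Yap siRNA. Neither balance was steady: 4 rose and 5 fell after Llgl1/2 siRNA without Llgl1/2 siRNA library 2, and 5 rose and 5 fell after Yap siRNA without control library 1 or 2. Slc40a1, the gene for the iron exporter ferroportin, rose by 1.24 ± 0.10 after Llgl1/2 siRNA (limma, adjusted p = 1.4e-06) and was at 0.01 ± 0.10 after Yap siRNA (adjusted p = 0.94). Hamp, the gene for hepcidin, the hormone that makes cells degrade ferroportin, rose by 1.28 ± 0.15 after Llgl1/2 siRNA (adjusted p = 5e-05) and by 2.24 ± 0.15 after Yap siRNA (adjusted p = 3.7e-07). Tf, the transferrin gene, fell by 1.74 ± 0.13 after Llgl1/2 siRNA (adjusted p = 6.4e-07) and by 0.47 ± 0.13 after Yap siRNA (adjusted p = 0.0075). Iscu, a scaffold gene for iron-sulfur clusters, fell by 0.82 ± 0.07 after Llgl1/2 siRNA (adjusted p = 2.9e-06) and rose by 0.33 ± 0.07 after Yap siRNA (adjusted p = 0.0024), and the siRNAs differed by -1.15 (adjusted p = 7.8e-08). Tfrc, the transferrin receptor gene, fell by 0.44 ± 0.07 after Yap siRNA (adjusted p = 0.00025), and Nfs1, the cysteine desulfurase gene, rose by 0.49 ± 0.09 (adjusted p = 0.00063). Nfs1 rose by 0.33 ± 0.09 after Llgl1/2 siRNA too (adjusted p = 0.012), where Tfrc was at 0.11 ± 0.07 (adjusted p = 0.24).

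Cyb5r3, the gene for the cytochrome b5 reductase that serves cytoglobin, moved the other way from Cygb. It stood at 65.16, 64.19 and 67.37 FPKM after Llgl1/2 siRNA, at 95.83, 75.38 and 93.67 FPKM after Yap siRNA and at 143.04, 142.64 and 163.26 FPKM in the controls, with no overlap among the 3 groups. It fell by 1.18 ± 0.09 (limma, adjusted p = 8.7e-07) and by 0.76 ± 0.09 (adjusted p = 1.5e-05). Its partner gene Cyb5a was at -0.42 ± 0.09 (adjusted p = 0.0018) after Llgl1/2 siRNA and at -0.15 ± 0.09 (adjusted p = 0.16) after Yap siRNA. It was named after its values were seen. Among all 20 tested reductases and peroxide scavengers, 5 rose and 4 fell after Llgl1/2 siRNA (median 0.05), and 6 rose and 6 fell after Yap siRNA (median -0.13). These counts lie near the shares over all tested genes, which were 22.1% rising and 18.1% falling after Llgl1/2 siRNA and 20.5% rising and 27.5% falling after Yap siRNA. Without control library 2 the rises after Llgl1/2 siRNA were 3. Gpx3, a secreted glutathione peroxidase gene, rose by 1.03 ± 0.10 after Llgl1/2 siRNA (adjusted p = 3.7e-06). Gpx4, the lipid peroxide-reducing member, rose by 0.59 ± 0.06 after Yap siRNA (adjusted p = 7.1e-06), as did Sod1, the cytosolic superoxide dismutase gene, by 0.61 ± 0.08 (adjusted p = 5.1e-05). Sod2, its mitochondrial counterpart, fell by 0.86 ± 0.09 after Llgl1/2 siRNA (adjusted p = 1.3e-05) and was at -0.61 ± 0.09 after Yap siRNA (adjusted p = 0.00012). Sod1 rose after Llgl1/2 siRNA too, by 0.30 ± 0.08 (adjusted p = 0.012).

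Nitric oxide is a substrate of both globins. Nos2, the inducible synthase gene, fell by 2.16 ± 0.12 after Llgl1/2 siRNA (limma, adjusted p = 6e-08) and by 0.83 ± 0.12 after Yap siRNA (adjusted p = 7.6e-05). Gch1, which makes the cofactor of nitric oxide synthases, stood at 3.88, 1.84 and 2.07 FPKM after Llgl1/2 siRNA, at 5.80, 4.33 and 4.83 FPKM after Yap siRNA and at 12.52, 11.26 and 9.32 FPKM in the controls. It fell by 1.78 ± 0.18 after Llgl1/2 siRNA (adjusted p = 8.6e-06) and by 1.01 ± 0.18 after Yap siRNA (adjusted p = 0.00051). Gucy1a3, a subunit gene of soluble guanylate cyclase, stood at 3.43, 5.65 and 4.62 FPKM after Llgl1/2 siRNA, at 4.28, 3.86 and 5.85 FPKM after Yap siRNA and at 1.80, 1.52 and 1.92 FPKM in the controls, a rise of 1.00 ± 0.17 after Llgl1/2 siRNA (adjusted p = 0.00035) and of 1.03 ± 0.17 after Yap siRNA (adjusted p = 0.00018). Ddah2, which breaks down an endogenous synthase inhibitor, rose by 0.84 ± 0.08 after Llgl1/2 siRNA (adjusted p = 6e-06), and its relative Ddah1 fell by 0.78 ± 0.07 after Yap siRNA (adjusted p = 1.6e-06). Ddah2 rose after Yap siRNA too, by 0.45 ± 0.08 (adjusted p = 0.00055), while Ddah1 was at 0.03 ± 0.07 after Llgl1/2 siRNA (adjusted p = 0.74). Of 13 tested genes in the list, 3 rose and 6 fell after Llgl1/2 siRNA (median -0.25), and 4 rose and 4 fell after Yap siRNA (median -0.14). Beside them, 22.1% of all tested genes rose and 18.1% fell after Llgl1/2 siRNA (median 0.03), and 20.5% rose and 27.5% fell after Yap siRNA (median -0.06). Nos1, the neuronal synthase gene, was at 0.07 FPKM or below in every library.

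Several transcription factors and calcium-dependent regulators act on the Mb gene in muscle. A list of such regulators and of related cardiac and metabolic factors was examined, and action of its members on Mb was not tested. Of 21 tested genes in it, 11 rose and 1 fell after Llgl1/2 siRNA (median 0.27), and 6 rose and 5 fell after Yap siRNA (median 0.06). All tested genes rose in 22.1% and fell in 18.1% of cases after Llgl1/2 siRNA, and rose in 20.5% and fell in 27.5% after Yap siRNA, which the second count lies near. Mef2d, a MEF2 family factor gene, stood at 54.66, 66.57 and 67.89 FPKM after Llgl1/2 siRNA, at 94.47, 97.65 and 93.47 FPKM after Yap siRNA and at 42.80, 49.76 and 53.88 FPKM in the controls. It rose by 0.36 ± 0.10 (limma, adjusted p = 0.0084) and 0.96 ± 0.10 (adjusted p = 3.3e-06). Esrrg, an estrogen-related receptor gene active in oxidative metabolism, rose by 0.57 ± 0.11 (adjusted p = 0.00089) and 0.82 ± 0.11 (adjusted p = 3.3e-05), and Hand2, a cardiac factor gene, by 0.41 ± 0.07 (adjusted p = 0.00048) and 0.55 ± 0.07 (adjusted p = 2.5e-05). Rcan1, a target and inhibitor of calcineurin, rose by 0.46 ± 0.07 after Llgl1/2 siRNA (adjusted p = 0.00013) and was at -0.15 ± 0.07 after Yap siRNA (adjusted p = 0.078). Nfatc3, one of the calcineurin-dependent factor genes, fell by 0.65 ± 0.10 after Llgl1/2 siRNA (adjusted p = 0.00019) and was at -0.37 ± 0.10 after Yap siRNA (adjusted p = 0.0074). Tbx5, a cardiac T-box gene, rose by 0.89 ± 0.12 after Llgl1/2 siRNA (adjusted p = 9.3e-05) and by 0.85 ± 0.12 after Yap siRNA (adjusted p = 8e-05).

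Genes of oxidative striated muscle, which share the tissue of Mb, rose in 9 of 16 tested cases and fell in 0 after Llgl1/2 siRNA (median 0.37), and rose in 10 and fell in 2 after Yap siRNA (median 0.59). Of all tested genes 22.1% rose and 18.1% fell after Llgl1/2 siRNA, and 20.5% rose and 27.5% fell after Yap siRNA. Without Llgl1/2 siRNA library 1 the first count was 8 higher and 1 lower. Hrc rose by 1.83 ± 0.10 after Yap siRNA (limma, adjusted p = 1.8e-08) and was at 0.22 ± 0.10 after Llgl1/2 siRNA (adjusted p = 0.11). Ckm, the muscle creatine kinase gene, stood at 195.41, 213.51 and 225.33 FPKM after Llgl1/2 siRNA, at 252.78, 244.80 and 300.03 FPKM after Yap siRNA and at 90.40, 86.45 and 112.10 FPKM in the controls. It rose by 1.13 ± 0.10 (adjusted p = 3.1e-06) and 1.46 ± 0.10 (adjusted p = 1.4e-07). Cd36, the fatty acid transporter gene, rose by 0.86 ± 0.07 after Llgl1/2 siRNA (adjusted p = 1.2e-06), Cpt1b, of the mitochondrial carnitine shuttle, by 0.79 ± 0.08 (adjusted p = 8.6e-06), and Hspb6, a small heat shock protein gene, by 0.91 ± 0.08 after Yap siRNA (adjusted p = 1.5e-06). Cd36 and Cpt1b rose after Yap siRNA too, by 0.55 ± 0.07 and 0.78 ± 0.08 (adjusted p = 2.3e-05 and 5.4e-06). Hspb6 rose by 0.24 ± 0.08 after Llgl1/2 siRNA (adjusted p = 0.033).

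The hypoxia response list, which includes oxygen sensors and their targets, gave no common direction. Of 19 tested, 4 rose and 6 fell after Llgl1/2 siRNA (median 0.03), and 3 rose and 8 fell after Yap siRNA (median -0.10). Among all tested genes the shares were 22.1% higher and 18.1% lower after Llgl1/2 siRNA, and 20.5% higher and 27.5% lower after Yap siRNA. Without Llgl1/2 siRNA library 2 the rises after Llgl1/2 siRNA were 2. Epas1, the HIF-2 alpha gene, fell by 1.12 ± 0.07 after Llgl1/2 siRNA (limma, adjusted p = 2.2e-07) and was at 0.01 ± 0.07 after Yap siRNA (adjusted p = 0.93). Adm, the adrenomedullin gene, fell by 0.98 ± 0.10 (adjusted p = 6.8e-06) and Bnip3, a mitophagy gene, rose by 0.61 ± 0.08 (adjusted p = 4.9e-05) after Llgl1/2 siRNA. Vegfa, the vascular growth factor gene, rose by 0.84 ± 0.06 after Yap siRNA (adjusted p = 1.9e-07), while Car9, a carbonic anhydrase gene, fell by 1.35 ± 0.18 (adjusted p = 3.3e-05) and P4ha1, a collagen prolyl hydroxylase gene, by 0.58 ± 0.08 (adjusted p = 3.3e-05). Adm and Bnip3 were at -0.63 ± 0.10 and 0.40 ± 0.08 after Yap siRNA (adjusted p = 0.00014 and 0.00081). After Llgl1/2 siRNA Vegfa, Car9 and P4ha1 were at 0.38 ± 0.06, -1.33 ± 0.18 and -0.34 ± 0.08 (adjusted p = 0.00032, 5.8e-05 and 0.0027).

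The genes that lie beside Mb and Cygb were compared next. Of the 6 nearest protein-coding genes in the GRCr8 annotation, 3 were tested beside Mb and 2 beside Cygb. Rbfox2, a splicing factor gene next to Mb, rose by 0.42 ± 0.11 after Llgl1/2 siRNA (limma, adjusted p = 0.0075) and was at 0.19 ± 0.11 after Yap siRNA (adjusted p = 0.17), the group in which Mb was highest. Apol9a rose by 0.53 ± 0.09 after Yap siRNA (adjusted p = 0.00045), and Rpl8, a ribosomal protein gene, was at -0.01 ± 0.09 and -0.05 ± 0.09 (adjusted p = 0.94 and 0.69). Beside Cygb, St6galnac2, a sialyltransferase gene, rose by 0.59 ± 0.12 after Llgl1/2 siRNA (adjusted p = 0.0013) and by 0.57 ± 0.12 after Yap siRNA (adjusted p = 0.0012), and Rhbdf2 was at 0.19 ± 0.13 (adjusted p = 0.25) after Llgl1/2 siRNA and fell by 0.40 ± 0.13 after Yap siRNA (adjusted p = 0.019). The Rhbdf2 call was lost without Yap siRNA library 2 (adjusted p = 0.081), control library 1 (0.082) or control library 2 (0.051). Cygb overlaps the annotated gene Prcd, and Mb overlaps 2 long non-coding genes. No source used here states that counting used strand, so reads from such overlaps cannot be told apart.

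The cultures held more than myocytes, and marker sums differed between the groups. The mean sum of cardiomyocyte markers lay above control after either siRNA. Mean sums of fibroblast, smooth muscle and pericyte, endothelial and leukocyte markers lay below control. However, the fibroblast sums after either siRNA, and the leukocyte sums after Yap siRNA, overlapped those of the controls. All 11 cardiomyocyte markers in the table were detected at 33.50 FPKM or more in every library, and their summed FPKM was 31841 to 35092 after Llgl1/2 siRNA, 35509 to 38382 after Yap siRNA and 27443 to 31633 in the controls. Of the 11, 6 rose and 1 fell after Llgl1/2 siRNA, and 8 rose and 3 fell after Yap siRNA. For this and the other marker lists, the shares over all tested genes to set beside the counts are 22.1% rising and 18.1% falling after Llgl1/2 siRNA, and 20.5% rising and 27.5% falling after Yap siRNA. Tnni3, the adult cardiac troponin I gene, rose by 0.47 ± 0.10 (limma, adjusted p = 0.0018) and 1.21 ± 0.10 (adjusted p = 4.4e-07), and Myh7, the slow myosin heavy chain gene, fell by 1.40 ± 0.09 after Yap siRNA (adjusted p = 6.4e-08). Myh7 was also lower after Llgl1/2 siRNA, at -0.39 ± 0.09 (adjusted p = 0.0033). Mb stayed higher when set against that sum. It was 0.502% ± 0.0678 of the summed markers after Llgl1/2 siRNA, 1.44% ± 0.095 after Yap siRNA and 0.432% ± 0.0129 in the controls (SD, n = 3 each), so the ratio to the control was 1.16 for Llgl1/2 siRNA, where the lowest library, 0.448%, lay just above the highest control, 0.444%, and 3.33 for Yap siRNA.

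Markers of fibroblasts, smooth muscle cells and pericytes moved in both directions. The 12 fibroblast markers summed to 1002 to 1107 FPKM after Llgl1/2 siRNA, to 980 to 1108 FPKM after Yap siRNA and to 1059 to 1379 FPKM in the controls. Of these, 1 rose and 4 fell after Llgl1/2 siRNA (median -0.31, against 22.1% rising and 18.1% falling over all tested genes). After Yap siRNA 4 rose and 2 fell (median 0.08, against 20.5% and 27.5%), or 1 fell without Yap siRNA library 2 or 3 or control library 1 or 2. The count after Llgl1/2 siRNA depended on control library 3, without which 1 rose and 7 fell. Lum, a collagen-binding proteoglycan gene, fell by 1.14 ± 0.13 after Llgl1/2 siRNA (limma, adjusted p = 1.7e-05) and rose by 0.65 ± 0.13 after Yap siRNA (adjusted p = 0.00096). Likewise Dcn, the decorin gene, fell by 0.98 ± 0.13 after Llgl1/2 siRNA (adjusted p = 4.7e-05) and rose by 1.03 ± 0.13 after Yap siRNA (adjusted p = 1.8e-05). Thy1, a surface antigen gene of fibroblasts, rose by 0.48 ± 0.12 after Llgl1/2 siRNA (adjusted p = 0.0048) and by 0.73 ± 0.12 after Yap siRNA (adjusted p = 0.00019). Fn1, the fibronectin gene, was lower after either siRNA, at -0.43 ± 0.08 (adjusted p = 0.00061) and -0.74 ± 0.08 (adjusted p = 3.8e-06). Vim, named after its values were seen, was at -0.24 ± 0.09 after Yap siRNA (adjusted p = 0.033). Vim and Fn1 had the largest control means among the 12 fibroblast markers, at 471 and 328 FPKM, and so weigh most in their sum. The 12 smooth muscle and pericyte markers summed to 2513 to 3001 FPKM after Llgl1/2 siRNA, to 1551 to 1626 FPKM after Yap siRNA and to 3784 to 3892 FPKM in the controls. Acta2, the smooth muscle actin gene that dominates that sum, fell by 0.98 ± 0.08 (adjusted p = 1.2e-06) and by 2.46 ± 0.08 (adjusted p = 1.7e-10), while Abcc9, a potassium channel subunit gene of pericytes and myocytes, rose by 0.55 ± 0.11 (adjusted p = 0.0019) and 1.65 ± 0.11 (adjusted p = 1.1e-07). Of the 12, 5 rose and 2 fell after Llgl1/2 siRNA (median 0.29, against 0.03 over all tested genes), and the falls were 1 without Llgl1/2 siRNA library 2 or control library 1. After Yap siRNA 6 rose and 5 fell (median 0.27, against -0.06 over all tested genes). The pericyte genes Pdgfrb, Rgs5, Kcnj8 and Notch3, named after their values were seen, were among those that rose after Yap siRNA, by 0.43 ± 0.11, 0.86 ± 0.30, 0.79 ± 0.20 and 0.47 ± 0.17 (limma, adjusted p = 0.0058, 0.034, 0.0049 and 0.033). Cspg4 and Mcam of the same list, named likewise, went the other way, at -0.41 ± 0.10 and -0.51 ± 0.08 (adjusted p = 0.0051 and 0.00023). The Rgs5 call was lost when Yap siRNA library 1, 2 or 3 or control library 3 was left out (adjusted p = 0.054 to 0.13), and the Notch3 call without Yap siRNA library 1 or 3 or control library 2 or 3 (adjusted p = 0.066 to 0.16). With no filter both calls were lost (adjusted p = 0.057 and 0.055), and with 0.1 FPKM added that of Rgs5 (adjusted p = 0.096).

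Endothelial markers were lower after either siRNA. Of 11 tested, 10 fell and 0 rose after Llgl1/2 siRNA, against 18.1% falling and 22.1% rising over all tested genes, and 6 fell and 1 rose after Yap siRNA, against 27.5% and 20.5%. Their sum was 286 to 302 FPKM after Llgl1/2 siRNA, 411 to 483 FPKM after Yap siRNA and 571 to 677 FPKM in the controls. Eng, the endoglin gene, fell by 1.33 ± 0.10 (limma, adjusted p = 6.5e-07) after Llgl1/2 siRNA and by 0.78 ± 0.10 (adjusted p = 2.4e-05) after Yap siRNA. Of 11 tested leukocyte markers, 7 fell after Llgl1/2 siRNA, or 4 without control library 2, against 18.1% of all tested genes, and 6 fell and 1 rose after Yap siRNA, against 27.5% and 20.5%. Their sum was 117 to 153 FPKM after Llgl1/2 siRNA, 147 to 192 FPKM after Yap siRNA and 161 to 211 FPKM in the controls. The Yap siRNA range thus overlapped both others, while the Llgl1/2 siRNA range lay below the controls. Cd14, the monocyte receptor gene, fell by 1.19 ± 0.15 after Llgl1/2 siRNA (adjusted p = 4.3e-05) and by 0.72 ± 0.15 after Yap siRNA (adjusted p = 0.0013).

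Erythroid markers bear on the hemoglobin reads. Of the 8 measured, 2 passed the filter, of which 1 rose and 1 fell after Llgl1/2 siRNA and 0 rose and 2 fell after Yap siRNA. The count after Llgl1/2 siRNA was 0 higher and 1 lower without Llgl1/2 siRNA library 2 or 3, or without control library 1 or 2. The defining genes Slc4a1, Klf1 and Gata1 were at 0.40 FPKM or below in every library. Tal1, a factor gene of blood and endothelium, fell by 0.63 ± 0.12 after Llgl1/2 siRNA (limma, adjusted p = 0.001) and by 0.51 ± 0.12 after Yap siRNA (adjusted p = 0.0034). The sum of the 8 was 16.8 to 22.4 FPKM after Llgl1/2 siRNA, 10 to 12.7 FPKM after Yap siRNA and 17.6 to 18.4 FPKM in the controls. The part of these marker shifts in the Mb and Cygb levels was not tested.

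**Figure D5:**
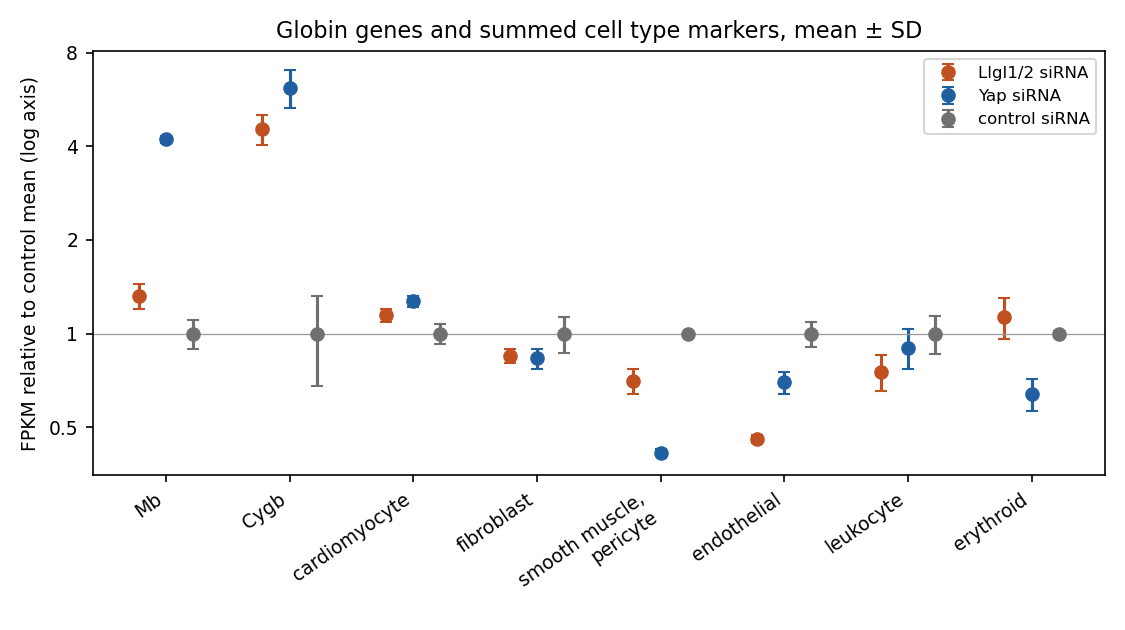
Mean level relative to the control mean, on a log axis, of Mb, Cygb and the summed FPKM of 6 cell type marker lists, for Llgl1/2 siRNA (orange), Yap siRNA (blue) and control siRNA (grey), with the SD of 3 libraries. Summed cardiomyocyte markers are at 1.14 and 1.27 times the control. Summed fibroblast markers are at 0.849 and 0.832 times, with library sums that overlap those of the controls. Mb is at 1.32 and 4.23 times and Cygb at 4.55 and 6.19 times.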

How the data were processed

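RNA-seq values of 9 libraries in 3 groups of 3 were analysed. The authors deposited FPKM per gene, given to 2 decimals. Bowtie2, HISAT and the rn6 build are named in the submitters' processing notes, and their roles and versions are not given in the sources used here. Read depth is unknown. One further value column (1 in all) repeated a library and was not used. From the FPKM, limma 3.58.1 in R 4.3.3 was run on log2(FPKM + 1), with a variance trend, robust moderation and a mean per group (6 residual degrees of freedom). A gene entered when 3 or more libraries reached 1 FPKM (10789 entered, 3847 removed). Benjamini-Hochberg adjustment covered every gene in the fit, and calls needed an adjusted p under 0.05. The fit was tested on simulated data. FPKM is relative within a library and carries no measure of RNA per cell.

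The members and gene lists were chosen with earlier results of these data known. In each list and comparison with the control, the 3 called genes with the smallest p could be named, or 2 where none was called, and a selection of these is described. Some of these genes are not reported here. Promoter and gene order come from RefSeq (GRCr8), where 14516 of 14636 gene IDs matched. Llgl1/2 siRNA and Yap siRNA libraries of the same number correlated in their deviations from group means at 0.24, 0.12 and 0.12. Those of different number correlated at -0.14 to 0.01. The main fit did not use the number. Alternatives were another pseudocount, other filters, other scalings, fewer libraries and the replicate number as a block.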

Additional observations from a re-analysis of the deposited data

How the results depend on the processing

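Mb kept its direction and size in every alternative run. Cygb moved only with the pseudocount, to 2.15 for Llgl1/2 siRNA and 2.58 for Yap siRNA against control with 0.1 FPKM added. Among other globins, 1 gene was called for Llgl1/2 siRNA and 2 for Yap siRNA with the replicate number as a block, and for Yap siRNA 3 with a filter at 10 FPKM, 3 with only the 6 libraries compared, and 0 to 4 when single libraries were left out. The filter at 10 FPKM, chosen after seeing the data, left calls for 3 fibroblast, 3 leukocyte and 1 erythroid marker after Llgl1/2 siRNA, and for 7 smooth muscle and pericyte, 3 leukocyte and 1 erythroid marker after Yap siRNA; Cygb was not tested there. Leaving out single libraries gave 4 to 8 fibroblast, 4 to 7 leukocyte and 1 to 2 erythroid calls after Llgl1/2 siRNA. The filter and the left-out libraries test fewer genes or samples, and the cause of the shift under the block was not tested. Median-ratio scaling turned the calls of Llgl1/2 against Yap siRNA to 47.8% higher, against 59.6% without it. It also gave 49.3% higher for Llgl1/2 siRNA against control, against 54.9% without it, and 49.2% higher for Yap siRNA against control, against 42.8% without it. In the control comparisons same-numbered libraries correlated at 0.01 to 0.17 and differently numbered ones at -0.18 to 0.07. What same-numbered libraries share was not tested. With the block, 4721 genes were called for Llgl1/2 siRNA against control, 5558 for Yap siRNA against control and 5452 for Llgl1/2 against Yap siRNA. It also brought Rbfox2 past the threshold after Yap siRNA (adjusted p = 0.03). Of 1968 alternative values of named genes, 1952 kept their call, 11 lost it and 5 gained it, and no called value changed direction. These values cover the targets, genes named by rule, and neighbours in profile or position. Genes named after their values were seen, such as Rgs5 and Notch3, are not counted.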

Other observations

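The authors' annotation places Mb and Cygb under iron ion binding, a term held by 134 genes of the table. The term was picked after the values were seen, so its counts are a description, and both members are left out of them. Of the 80 others tested, 20 rose and 16 fell after Llgl1/2 siRNA (25% and 20%, against 22.1% and 18.1% of all tested genes), with a median difference of -0.03 on the log2(FPKM + 1) scale. After Yap siRNA 17 rose and 26 fell (21.2% and 32.5%, against 20.5% and 27.5% of all tested genes), with a median of -0.14. These shares lie near those of all tested genes. Gas transport, the other named term they share, is held by 12 genes of the table. Of the 7 tested beside the members, 1 rose and 0 fell after Llgl1/2 siRNA (14.3% and 0%, against 22.1% and 18.1% of all tested genes). After Yap siRNA 0 rose and 1 fell (0% and 14.3%, against 20.5% and 27.5%). The 7 include Hba1, Hba2, Hbb, Hbb-b1 and LOC689064, already counted among the other globins. The fall was that of Hbb, whose call was lost in 4 alternative runs.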
